A study of Homo sapiens with 6 samples.

Results

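Accessible chromatin at 5 genes that regulate histone gene output, NPAT, GON4L, YY1AP1, CASP8AP2 and SLBP, was compared between U2OS cells with a CRAMP1 knockout (CRAMP1-KO, 3 libraries) and wild-type U2OS cells (WT, 3 libraries). U2OS is an established human osteosarcoma cell line. ATAC-seq, the assay used, inserts sequencing adapters into open DNA with a transposase, and a peak is a stretch with more insertions than its surroundings. The genotype is the only difference that the labels give, and they list no treatment for either group. They state neither whether the CRAMP1-KO cells were 1 clone nor whether libraries came from separate cultures. Each p-value therefore reflects only spread among these 6 libraries, which may be technical. The moderated test used, limma, takes part of that spread for a region from other regions of the genome. A member was any region with a deposited peak inside 1 of the genes or within 5 kb of it. Merging the peaks of the 6 libraries gave 21 such regions out of 248031 in the genome. The genes differed in how many they held, with 12 regions at GON4L, 3 at YY1AP1 and 2 each at NPAT, CASP8AP2 and SLBP.

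Replication-dependent histone genes are switched on together as cells enter S phase. NPAT, a target of cyclin E and CDK2, is the coactivator that gathers at histone genes in nuclear structures called histone locus bodies. CASP8AP2, also known as FLASH, is another component of these bodies and takes part in cutting the ends of histone transcripts. GON4L is a nuclear protein with a Myb-like domain related to the one by which FLASH contacts NPAT, and YY1AP1, a coactivator of the transcription factor YY1, is related to GON4L in sequence. SLBP binds the stem-loop at the end of histone mRNAs and governs their processing, export and translation, so it acts on the transcript and not on the gene. CRAMP1 itself is known for promoting expression of the linker histone, H1. ATAC-seq gives no expression level, so neither the output of these genes nor the loss of CRAMP1 could be checked here.

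The promoters are shown first, because the strongest peak of 4 of the 5 genes lay there. Each sequence is the RefSeq promoter of the gene in build GRCh38.p14, from 250 bases before to 50 bases after the start, read 5′ to 3′ on the strand of the gene. That strand is plus for CASP8AP2 and minus for the other 4. Capitals mark matches on either strand to a motif of E2F (TTTGGCGC, TTTCCCGC, TTTGCCGC, TTTCGCGC or GGCGGGAA), ETS factors (CGGAAGT), NF-Y (CCAAT), SP and KLF factors (GGGCGG), YY1 (AAGATGGC) or CREB (TGACGTCA). The letters GGGCGG and GGCGGGAA can overlap each other.
NPAT: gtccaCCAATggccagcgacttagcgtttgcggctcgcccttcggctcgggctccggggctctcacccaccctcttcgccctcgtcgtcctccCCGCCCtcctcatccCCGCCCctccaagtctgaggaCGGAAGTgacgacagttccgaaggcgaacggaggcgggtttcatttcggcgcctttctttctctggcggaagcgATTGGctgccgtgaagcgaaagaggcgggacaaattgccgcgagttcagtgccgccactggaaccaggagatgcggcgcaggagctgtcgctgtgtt
CASP8AP2: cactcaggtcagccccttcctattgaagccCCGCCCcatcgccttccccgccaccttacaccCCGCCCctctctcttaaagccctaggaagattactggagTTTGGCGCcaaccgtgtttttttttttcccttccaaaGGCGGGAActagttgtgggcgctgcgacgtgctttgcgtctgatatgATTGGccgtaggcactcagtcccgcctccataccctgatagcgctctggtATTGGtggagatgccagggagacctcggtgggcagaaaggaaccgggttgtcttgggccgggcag
GON4L: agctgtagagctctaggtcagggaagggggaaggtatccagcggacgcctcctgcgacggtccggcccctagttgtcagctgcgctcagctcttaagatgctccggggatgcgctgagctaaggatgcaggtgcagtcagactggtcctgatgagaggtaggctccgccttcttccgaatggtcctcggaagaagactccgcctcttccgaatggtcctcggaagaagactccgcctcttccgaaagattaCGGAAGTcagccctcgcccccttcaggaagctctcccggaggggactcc
YY1AP1: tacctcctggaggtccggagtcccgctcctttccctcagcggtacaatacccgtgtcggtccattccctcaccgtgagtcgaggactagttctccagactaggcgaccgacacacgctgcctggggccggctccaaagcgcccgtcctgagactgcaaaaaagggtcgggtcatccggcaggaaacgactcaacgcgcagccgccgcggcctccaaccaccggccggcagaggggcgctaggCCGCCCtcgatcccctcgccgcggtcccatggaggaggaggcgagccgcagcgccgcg
SLBP: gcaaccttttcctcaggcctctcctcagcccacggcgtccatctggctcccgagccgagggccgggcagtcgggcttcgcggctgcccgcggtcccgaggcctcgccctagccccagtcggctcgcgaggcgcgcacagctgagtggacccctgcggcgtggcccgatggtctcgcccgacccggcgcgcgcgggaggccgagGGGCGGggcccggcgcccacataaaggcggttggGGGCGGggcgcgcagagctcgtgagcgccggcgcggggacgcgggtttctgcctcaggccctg

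CASP8AP2 held 2 E2F matches, and no other of the 5 promoters held one; 5.58% of 35097 RefSeq promoters of this length did. NPAT and CASP8AP2 each held 2 CCAAT matches, a motif found in 34.6% of promoters. NPAT and GON4L each held 1 ETS match, against a share of 6.83%. GGGCGG, found in 44.9% of promoters, occurred 2 times each in NPAT, CASP8AP2 and SLBP, 1 time in YY1AP1 and 0 times in GON4L. No YY1 or CREB match was found in these windows, where 2.89% and 1.85% of promoters have one. The G and C content ran from 58.3% in CASP8AP2 to 76.7% in SLBP, beside a median of 58.7% over all promoters, and the number of CpG pairs from 17 to 42, beside a median of 14. The GON4L promoter alone of the 5 held a tandem repeat with a unit of at least 10 bases, a 33-base unit that ran on over 75 bases. In RefSeq, NPAT, GON4L and YY1AP1 each start within 2 kb of a protein-coding gene on the other strand, namely ATM, SYT11 and DAP3, so a peak there cannot be given to 1 gene of the pair.

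The depth of a library can set how many weak peaks it holds, so it comes before the counts. Libraries had 133756, 139242 and 157997 peaks in CRAMP1-KO and 198875, 151646 and 132686 in WT. A relative depth index, the lowest solved background of a library divided by its narrowest peak width, stood in for sequencing depth, and, set to 1 in WT replicate 1, it was 0.516, 0.504 and 0.641 in CRAMP1-KO and 0.625 and 0.458 in WT replicates 2 and 3. By this estimate WT replicate 1 was the deepest library, and the other 5 lay between 0.458 and 0.641. WT replicate 1 also had the lowest median fold of its peaks over their local background, at 4.25. In the other libraries this median was 6.20, 6.21 and 6.26 in CRAMP1-KO and 5.96 and 6.21 in WT replicates 2 and 3.

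No region at the 5 genes was called in every library of 1 genotype and in none of the other. Of the 21 regions, 10 had a peak in all 6 libraries, among them all 5 promoters. Of the remaining 11, 6 had peaks in libraries of both genotypes and 5 in 1 library only. A peak in 3 of 3 CRAMP1-KO and 0 of 3 WT libraries occurred in 0 of the 21 regions, where 0.767% of all merged regions had that pattern, and the reverse in 0 of 21, where 1.14% did. With shares that low, a count of 0 among 21 says little about these genes. Over the genome, 37.3% of merged regions were shared in this way by all 6. Of the 11 regions not shared, 9 had a peak in WT replicate 1 and 4 had one there alone. Apart from a site upstream of CASP8AP2 they were weak, with summit pileups, the number of overlapping reads or fragments at the highest point, of 9 to 31.

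The genes had different layouts. NPAT, YY1AP1 and CASP8AP2 had 1 shared region each, at the promoter. SLBP had a second one 18.7 kb into the gene, near its far end. GON4L, the longest of the genes at 110 kb (109.684 kb), had 5: the promoter, sites 2.1, 82.8 and 95.8 kb into the gene, and a site 113.6 kb from the start. That last site lies past the end of the gene as placed here, but RefSeq in GRCh38.p14 makes GON4L 4.64 kb longer. GON4L and YY1AP1 are related and lie near each other, and whether reads were shared between copies was not tested.

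**Figure D1:**
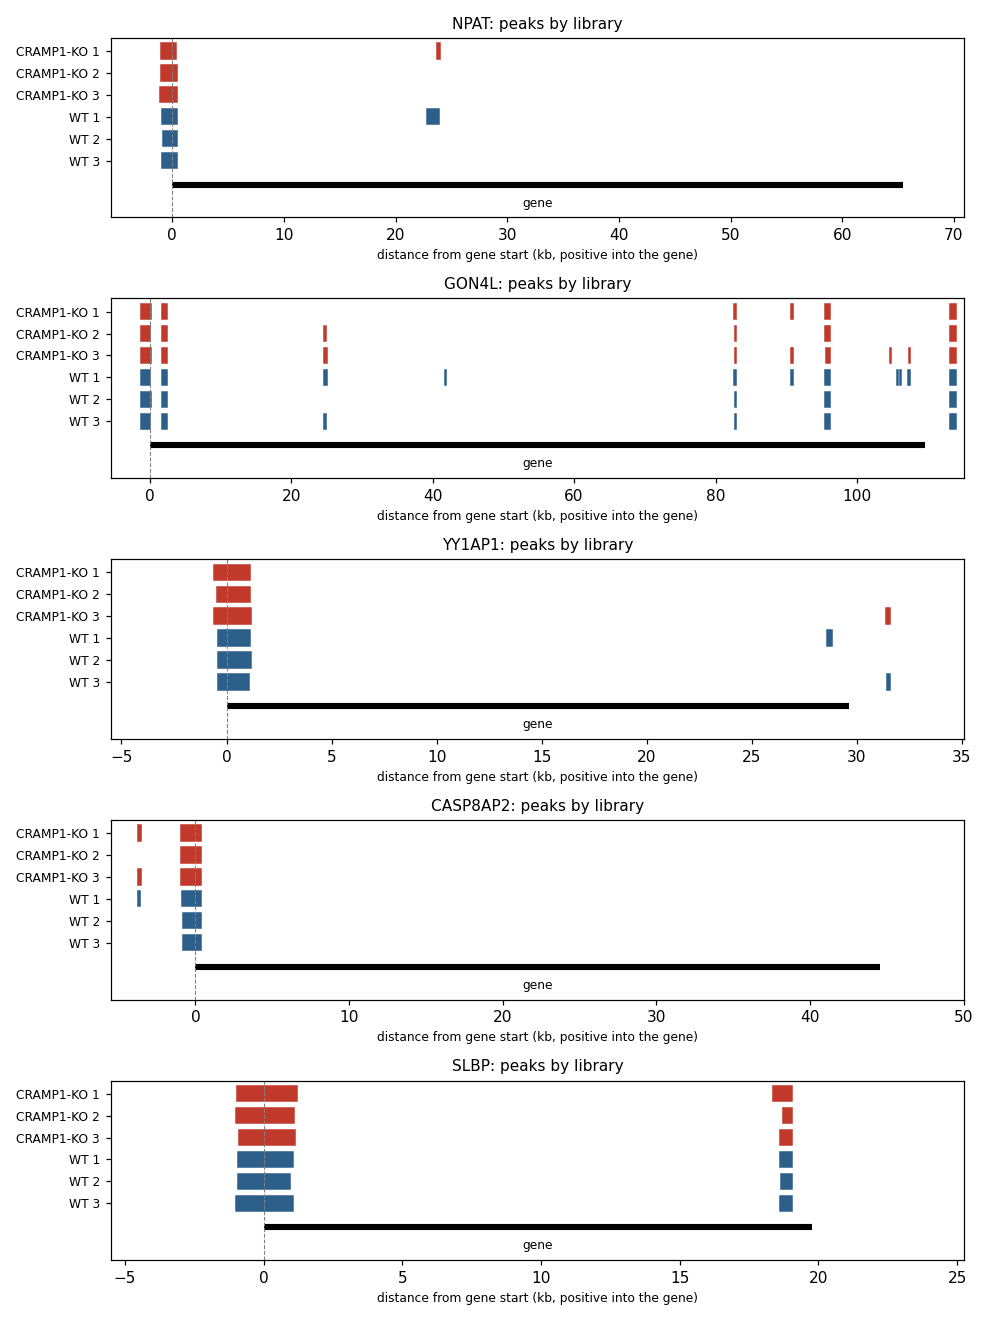
Peaks in each of the 3 CRAMP1-KO libraries (red) and 3 WT libraries (blue) at the 5 genes, by distance from the gene start in kb, with the gene as a black bar. All 6 libraries have a promoter peak at each gene, and most peaks inside genes lie in GON4L.

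NPAT had the strongest promoter of the 5. The merged region lay at chr11:108092939-108094434 (hg19), across the gene start. Its summit pileup was 379, 409 and 547 in CRAMP1-KO and 612, 636 and 376 in WT. To compare libraries of unequal depth, each pileup was divided by the median pileup of the 92505 regions shared by all 6 libraries. The scaled pileup of the NPAT promoter was 6.21, 6.60 and 5.70 in CRAMP1-KO and 6.31, 7.31 and 7.09 in WT, and the groups overlapped. The log2 change, CRAMP1-KO minus WT, was -0.16 (SE 0.12, limma adjusted p = 0.310). The deposited fold of the peak over its local background was 16.5, 16.4 and 14.8 in CRAMP1-KO and 17.4, 18.0 and 16.9 in WT. The highest point lay 223 to 228 bases upstream of the gene start in all libraries but WT replicate 2, where it lay 295 bases upstream.

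The NPAT peak was wider in CRAMP1-KO, on the side that faces ATM. It spanned 1406, 1434 and 1492 bp in CRAMP1-KO and 1353, 1199 and 1313 bp in WT. The upstream edge lay 1039, 1042 and 1065 bases from the gene start in CRAMP1-KO and 922, 809 and 915 bases in WT, without overlap. The edge inside NPAT lay at 366, 391 and 426 bases in CRAMP1-KO and 430, 389 and 397 bases in WT, which overlapped. Widths were larger in CRAMP1-KO across the genome as well, and relative to the median width of each library the log2 change at NPAT was 0.04 (SE 0.10, limma adjusted p = 0.896).

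The CASP8AP2 promoter likewise had overlapping heights and an upstream edge further out in CRAMP1-KO. The region lay at chr6:90538685-90539994 (hg19). Its scaled pileup was 3.77, 3.77 and 2.95 in CRAMP1-KO and 3.38, 3.92 and 3.85 in WT, with overlapping groups and a log2 change of -0.09 (SE 0.10, limma adjusted p = 0.534). The highest point was at the same place in every library, 47 bases upstream of the start. The peak spanned 1310, 1302 and 1296 bp in CRAMP1-KO, while in WT it covered 1237, 1173 and 974 bp, the last of these as 2 peaks in WT replicate 3. The upstream edge lay 928, 922 and 928 bases from the start in CRAMP1-KO and 876, 792 and 799 bases in WT. Relative to the median width of each library, the log2 change was 0.08 (SE 0.08, limma adjusted p = 0.678).

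SLBP had the broadest promoter region, at chr4:1713060-1715267 (hg19). Its scaled pileup was 3.25, 3.55 and 3.08 in CRAMP1-KO and 3.48, 4.13 and 4.49 in WT. CRAMP1-KO averaged 3.29 ± 0.236 and WT 4.03 ± 0.509 (SD, n = 3), and the groups overlapped by 1 library each. The SLBP promoter was called lower in CRAMP1-KO (log2 change -0.29, SE 0.10, limma adjusted p = 0.0320). The call was lost without CRAMP1-KO replicate 1 or 3 or WT replicate 2 or 3, where the change was -0.27, -0.24, -0.27 and -0.22 (limma adjusted p = 0.0957, 0.121, 0.118 and 0.189). The deposited fold was 10.2, 10.8 and 9.63 in CRAMP1-KO and 12.3, 12.7 and 12.4 in WT, without overlap. Folds were likewise lower without overlap at the NPAT and YY1AP1 promoters and at the sites 2.1 kb into GON4L and 18.7 kb into SLBP. The gap at that SLBP site was narrow. Folds overlapped at the other shared regions. The share of all shared regions with such folds was not computed, so no result about these genes is drawn from the folds. At the SLBP promoter the edge that differed was the one inside the gene, at 1222, 1110 and 1150 bases from the start in CRAMP1-KO and 1076, 944 and 1060 bases in WT. The site 18.7 kb into SLBP had scaled pileups of 1.21, 1.15 and 0.927 in CRAMP1-KO and 1.26, 1.18 and 1.19 in WT, which overlapped (log2 change -0.15, limma adjusted p = 0.380).

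The YY1AP1 promoter region, shared with DAP3, lay at chr1:155657688-155659440 (hg19), with its highest point inside YY1AP1, 282 to 399 bases from the start. The scaled pileup was 2.46, 2.87 and 2.68 in CRAMP1-KO and 3.16, 3.15 and 3.23 in WT, without overlap. Group means were 2.67 ± 0.206 in CRAMP1-KO and 3.18 ± 0.0407 in WT (SD, n = 3). The log2 change was -0.26 (SE 0.10, limma adjusted p = 0.0458), just past the threshold of 0.05. It stayed past the threshold without CRAMP1-KO replicate 2 but not without any other library, where the limma adjusted p was 0.0632 without WT replicate 1, 0.103 and 0.102 without WT replicates 2 and 3, and 0.221 and 0.0836 without CRAMP1-KO replicates 1 and 3. The log2 change in those fits was -0.25, -0.27, -0.26, -0.19 and -0.26. The upstream edge lay at 582, 433 and 591 bases in CRAMP1-KO and 415, 405 and 384 bases in WT.

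GON4L was unlike the other genes in that its promoter was not its strongest site. The region at the promoter, chr1:155829080-155830505 (hg19), lay almost wholly upstream of the gene start, towards SYT11, and reached only 79 to 111 bases into GON4L. Its scaled pileup was 1.23, 1.16 and 1.18 in CRAMP1-KO and 1.64, 1.37 and 1.30 in WT, without overlap. The log2 change of -0.27 (SE 0.12) missed the threshold (limma adjusted p = 0.0833), and passed it without WT replicate 3 (log2 change -0.35, limma adjusted p = 0.0472). Without WT replicate 1 the log2 change was -0.16 (limma adjusted p = 0.390). Its highest point varied in place, lying 130, 1300 and 857 bases upstream of the start in CRAMP1-KO and 140, 141 and 272 bases upstream in WT. The pileups compared at this promoter were therefore not all taken at the same place. The upstream edge was nearly the same in all libraries, at 1314 bases in each CRAMP1-KO library and at 1312, 1307 and 1307 bases in WT.

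The site 2.1 kb inside GON4L, at chr1:155826743-155827443, was higher than the promoter in every library. Its scaled pileup was 2.02, 2.44 and 2.64 in CRAMP1-KO and 2.72, 2.85 and 2.91 in WT, without overlap. limma called it lower in CRAMP1-KO (log2 change -0.27, SE 0.10, adjusted p = 0.0427). CRAMP1-KO replicate 1 was the lowest library, and without it the log2 change was -0.15 (limma adjusted p = 0.348). The call was also lost without WT replicate 2 or 3, where the change was -0.26 each time (limma adjusted p = 0.114 and 0.105).

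The largest difference at the 5 genes was at the site 95.8 kb inside GON4L, at chr1:155733025-155733669. Its pileup was 58, 79 and 138 in CRAMP1-KO and 164, 140 and 96 in WT. Scaled to the library median it was 0.951, 1.27 and 1.44 in CRAMP1-KO and 1.69, 1.61 and 1.81 in WT, so all 3 CRAMP1-KO libraries lay below all 3 WT libraries. Group means were 1.22 ± 0.248 in CRAMP1-KO and 1.70 ± 0.102 in WT (SD, n = 3). The log2 change was -0.50 (SE 0.12, limma adjusted p = 0.00104), or 0.707 times the WT level. Fitted by limma without its intensity trend, the same change had an SE of 0.15 (limma adjusted p = 0.0446). CRAMP1-KO replicate 1 again had the lowest value. Without it the change was -0.32 (limma adjusted p = 0.0452), and without CRAMP1-KO replicate 3 it was -0.63 (limma adjusted p = 6.52e-05). The deposited fold did overlap between genotypes, at 10.7, 13.6 and 17.2 in CRAMP1-KO and 16.9, 16.3 and 15.7 in WT. Its highest value was in CRAMP1-KO replicate 3. This site was also slightly narrower in CRAMP1-KO, at 622, 611 and 591 bp against 636, 637 and 634 bp in WT, though not by limma (log2 change relative to the library median -0.19, SE 0.12, adjusted p = 0.578). The other 2 shared sites of GON4L overlapped between genotypes in scaled pileup. At 113.6 kb the peak was wider in CRAMP1-KO before scaling, at 917, 905 and 907 bp against 898, 896 and 877 bp in WT. Relative to the median width of each library, its log2 change was -0.10 (SE 0.10, limma adjusted p = 0.691). The scaled pileup there was 6.43, 6.79 and 5.61 in CRAMP1-KO and 6.56, 7.39 and 7.62 in WT, close to the NPAT promoter in strength. At 82.8 kb it was 0.328, 0.468 and 0.490 in CRAMP1-KO and 0.454, 0.494 and 0.528 in WT.

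**Figure D2:**
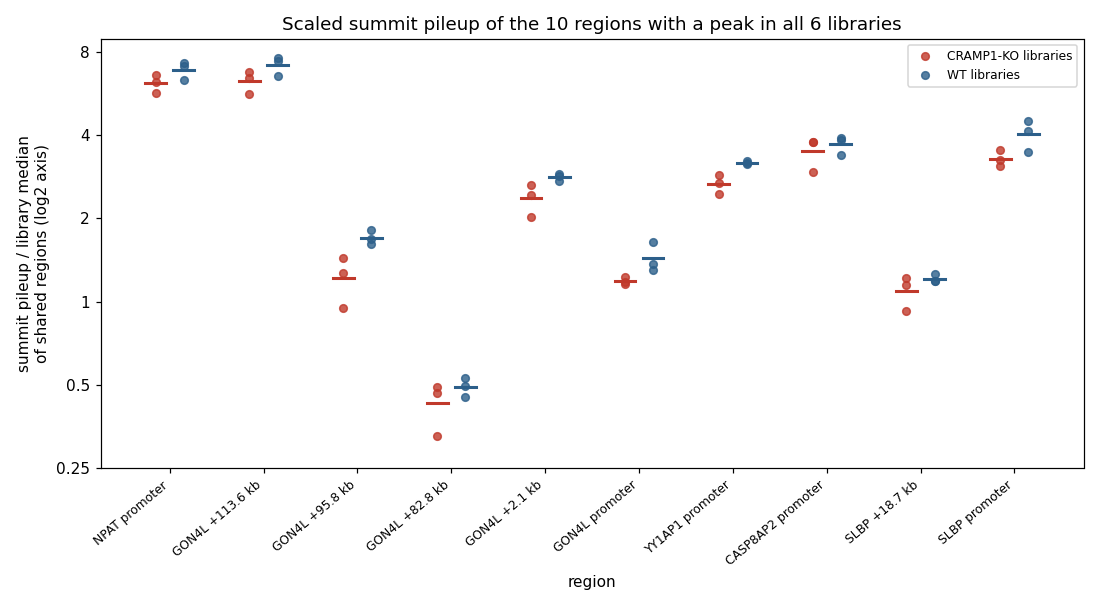
Summit pileup divided by the library median of shared regions (log2 axis) for the 10 regions with a peak in all 6 libraries; points are the 3 CRAMP1-KO (red) and 3 WT (blue) libraries and short lines their means. The groups do not overlap at the GON4L and YY1AP1 promoters and at the GON4L sites at 2.1 and 95.8 kb.

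Read against the genome, the strongest regions of these genes stood beside a lower median at strong regions everywhere, while the weaker regions of GON4L stood in classes with a median near 0. limma called 4 of the 10 shared regions lower in CRAMP1-KO and 0 higher, where 15.5% of all 92505 shared regions were called lower and 9.36% higher. Without overlap between genotypes, 4 of the 10 were lower in CRAMP1-KO and 0 higher, against 23.7% and 14.4% of all shared regions. The median log2 change was -0.24 over the 10 regions and -0.07 over all shared regions. Strong regions were lower in CRAMP1-KO as a class: the median log2 change was -0.17 in the top decile of shared regions by mean pileup, where 22.6% were called lower, and -0.14 in the next decile, where 25.8% were. The promoters of NPAT, CASP8AP2 and SLBP and the GON4L site at 113.6 kb fell in the top decile, and the YY1AP1 promoter and the GON4L site at 2.1 kb in the next. The GON4L site at 95.8 kb and the GON4L promoter fell in decile 7 (counted from the weakest), where the median log2 change was -0.04 and 17.9% were called lower, beside -0.50 and -0.27 at these regions. The GON4L site at 82.8 kb, at -0.22, fell in decile 2, with a median of 0.0025, and the SLBP site at 18.7 kb, at -0.15, in decile 6, with a median of -0.02. Neither was called.

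Quantile normalization, which gives all libraries the same distribution of pileups, left a median log2 change of -0.02 to 0.01 in every decile. Under it limma called 1 of the 10 regions lower and 0 higher, where 11.4% of all shared regions were called lower and 11.8% higher. That region was the GON4L site at 95.8 kb, with a log2 change of -0.46 (SE 0.12, limma adjusted p = 0.00476). The log2 changes of the 4 other regions named as lower or not overlapping were -0.13 at SLBP, -0.13 at YY1AP1, -0.24 at the GON4L promoter and -0.15 at the GON4L site at 2.1 kb, with limma adjusted p of 0.222, 0.282, 0.145 and 0.255. The NPAT and CASP8AP2 promoters changed sign, to 0.01 and 0.05, so 8 of the 10 were below 0. Scaled by the background rate of each library in place of the median, limma called 0 of the 10 (1 at an unadjusted p under 0.05), where 4.71% of all shared regions were called lower and 4.74% higher. The GON4L site at 95.8 kb had a log2 change of -0.48 (limma adjusted p = 0.0508). The log2 changes of the other lost calls were close to those under median scaling, at -0.27 for the SLBP promoter, -0.24 for the YY1AP1 promoter and -0.25 for the GON4L site at 2.1 kb, with larger SE (0.17, 0.17 and 0.16; limma adjusted p = 0.349, 0.412 and 0.381). Over the genome, 37.6% of the calls were higher in CRAMP1-KO under median scaling, 50.9% under quantile normalization and 50.2% under background scaling.

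**Figure D3:**
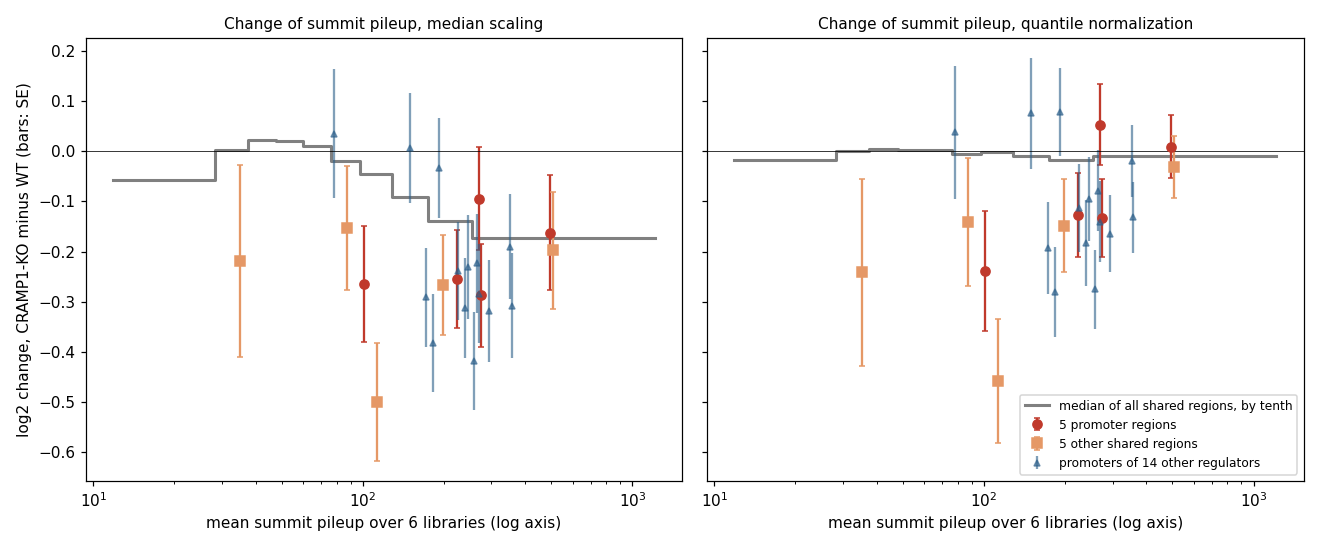
Log2 change of summit pileup, CRAMP1-KO minus WT, against mean pileup (log axis), under median scaling (left) and quantile normalization (right). Red circles are the 5 promoters, orange squares the 5 other shared regions, blue triangles the promoters of 14 other regulators, bars the SE, and the grey line the median of all shared regions by decile of pileup. The GON4L site at 95.8 kb, at -0.50 and -0.46, is the lowest point in both.

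The surroundings of the genes differed from each other. Within 1 Mb of GON4L, 174 shared regions had a median log2 change of -0.14, and 20.7% were called lower under median scaling, beside 15.5% of all shared regions. Around YY1AP1, SLBP, NPAT and CASP8AP2 the share was 20.7%, 16.1%, 9.26% and 8.06%. Under quantile normalization 8.05% were called lower around GON4L, beside 11.4% of all shared regions. Around YY1AP1, SLBP, NPAT and CASP8AP2 that share was 10.1%, 7.63%, 7.41% and 4.84%. The median was -0.14 around YY1AP1, whose surroundings overlap those of GON4L, -0.15 around SLBP, -0.06 around NPAT and -0.04 around CASP8AP2. Under quantile normalization these medians ran from -0.07 at SLBP to 0.03 at NPAT. The part of such regional values in the differences at the genes was not tested.

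Some edges of the promoter peaks also differed between genotypes without overlap. Edge positions, unlike the widths given to limma, were not scaled by library. Of the 10 edges of the 5 promoter regions, 5 lay further out in all 3 CRAMP1-KO libraries than in all 3 WT libraries, 1 at each gene, and 0 lay further in. Among all edges of shared regions, 13.3% lay further out in CRAMP1-KO and 3.37% further in. No such share is given for regions of like strength or width. Over the 10 shared regions of the 5 genes, 6 of 20 edges lay further out. At GON4L the gap was 2 bases, at NPAT and YY1AP1 it was 117 and 18 bases, at CASP8AP2 46 and at SLBP 34. The edge was the one upstream of the gene at NPAT, GON4L, YY1AP1 and CASP8AP2 and the one inside the gene at SLBP. By total width, 3 of the 10 regions were wider in CRAMP1-KO without overlap and 1 was narrower, beside 19.2% and 3.03% of all shared regions. limma, on widths scaled to the library median, called 0 of the 10 wider and 0 narrower, and 0 had an unadjusted p under 0.05, where 0.0281% and 0.0141% of all shared regions were called. Edges were examined after the widths had been seen, and where a peak ends can depend on the depth of its library, whose part was not tested.

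**Figure D4:**
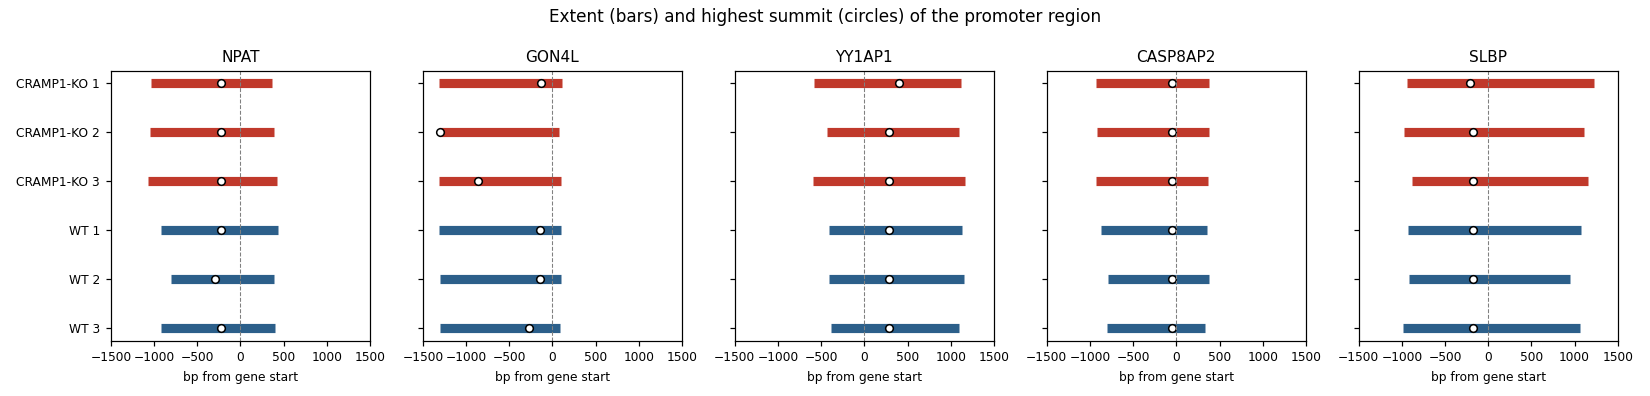
Extent of the promoter region in bp from the gene start, negative upstream, in the 3 CRAMP1-KO (red) and 3 WT (blue) libraries, with a circle at the highest summit. The upstream edge reaches further in CRAMP1-KO at NPAT, YY1AP1 and CASP8AP2, and the summit moves between libraries at GON4L.

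Covered bases per window, the gene with 5 kb on either side, were divided by the Mb that all peaks of the library cover. So scaled, they did not overlap between genotypes at CASP8AP2 and overlapped at the other 4 genes. Before the division, the CASP8AP2 window held 1474, 1302 and 1464 bases in CRAMP1-KO and 1373, 1173 and 974 in WT, which overlapped. After it, the window held 18.8, 16.7 and 15.9 bases per Mb covered by peaks in CRAMP1-KO and 14.4, 14.1 and 14.5 in WT. Means were 17.1 ± 1.47 in CRAMP1-KO and 14.3 ± 0.221 in WT (SD, n = 3; two-sided exact permutation p = 0.1, the smallest that 3 against 3 libraries allow). Of 35828 genome tiles as long as this window with a peak in every library, 13.0% were higher in CRAMP1-KO without overlap. The difference of 2.79 bases per Mb shrank to 0.136 when the flanks were left out (exact permutation p = 0.7) and was 1.98 in lists of equal length (exact permutation p = 0.3). All covered bases of this window lay in the promoter peak and a narrow site upstream of it, so the value is not separate from the promoter width. Leaving out the flanks removes the part of the promoter peak upstream of the gene start. The windows of NPAT, GON4L, YY1AP1 and SLBP overlapped, with differences of -0.942, -1.94, 0.390 and 1.64 bases per Mb (exact permutation p = 0.9, 0.7, 0.8 and 0.8). Leaving out 1 library moved these values widely. The NPAT difference was 1.78 without WT replicate 1, 0.337 without CRAMP1-KO replicate 3, -2.39 without CRAMP1-KO replicate 1 and -3.59 without WT replicate 2. With WT replicate 1, 2 or 3 left out, the GON4L difference was -1.22, -5.68 or 1.09 (exact permutation p = 0.8, 0.1 or 0.7). It was -4.35 with 10 kb on either side, where the genotypes did not overlap (exact permutation p = 0.1). Of 20299 genome tiles as long as the GON4L window with 5 kb on either side, 8.53% were lower in CRAMP1-KO without overlap. The share for the longer window is not given here, so no result is drawn from it. The YY1AP1 difference ran from -0.581 without WT replicate 1 to 2.26 without WT replicate 3, and the SLBP difference from -0.797 without CRAMP1-KO replicate 1 to 5.20 without WT replicate 3.

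The promoters of 14 other genes of the same pathway gave a wider view. They were HINFP, POU2F1 and E2F1, transcription factors that act on histone or S-phase genes, CDK2, CCNE1 and CCNA2, which form the cyclin kinases of S phase, and LSM10, LSM11, ZNF473, CPSF2, CPSF3, SYMPK, SRRT and CSTF2, which take part in histone mRNA processing. Their starts were placed by hand, and a peak there served to check the placement, so the peak that each had in all 6 libraries is no result. None of these promoters had a mean pileup below the median of shared regions. All but that of CPSF2 fell in deciles 8 to 10, where 21.7%, 25.8% and 22.6% of regions were called lower under median scaling. limma called 7 of the 14 lower in CRAMP1-KO and 0 higher under median scaling, where 15.5% of all shared regions were called lower. Under quantile normalization it called 2 lower and 0 higher, a share near the 11.4% of all shared regions. The median log2 change was -0.26 under median scaling and -0.12 under quantile normalization. The 2 called under both were CCNE1, the cyclin that with CDK2 acts on NPAT, and SRRT, a factor of nuclear RNA processing. CCNE1 had a log2 change of -0.42 under median scaling (SE 0.10, limma adjusted p = 0.000982) and -0.28 under quantile normalization (SE 0.08, limma adjusted p = 0.00761). SRRT had -0.38 (SE 0.10, limma adjusted p = 0.00262) and -0.28 (SE 0.09, limma adjusted p = 0.0189). HINFP, LSM10, ZNF473, CPSF3 and SYMPK were called under median scaling alone, at -0.31, -0.31, -0.29, -0.28 and -0.32 (limma adjusted p = 0.0238, 0.0157, 0.0240, 0.0277 and 0.0157). Under background scaling limma called 0 of the 14 (2 at an unadjusted p under 0.05), where 4.71% of all shared regions were called lower. The log2 changes of CCNE1 and SRRT were still -0.40 and -0.36 there (limma adjusted p = 0.116 and 0.155). By width limma called 0 of the 14 (1 at an unadjusted p under 0.05).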

How the data were processed

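ATAC-seq of 3 CRAMP1-KO and 3 WT U2OS libraries was analysed from peak lists on hg19. The tools named in the submitters' processing notes are MACS3, BWA (0.7.17-r1188), cutadapt (3.4) and bcl2fastq (2.20.0). Peak calling settings were not given in the sources used here. For each library the authors deposited 1 list, with a score, a fold over local background, a −log10 p and a −log10 q for each peak. No read counts came with them, so the depth in reads is unknown. Pileup and background at each summit were solved from the deposited fold and −log10 p, and 100% of pileups came out whole, within 0.01, in every library. The solver and the model were tested on simulated data.

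Peaks that share at least 1 bp were merged. Autosomes and chromosome X were used. Pileup and covered width of the 92505 regions shared by all libraries were compared by limma (3.58.1, R 4.3.3) on log2 values centred on the library median, with an intensity trend, two-sided, with Benjamini-Hochberg adjustment over all shared regions and a threshold of 0.05. Covered bases per window, divided by the Mb that all peaks of the library cover, were compared by an exact permutation test over 20 assignments. Gene limits are those of hg19, and a promoter region is the one over or nearest the gene start within 1 kb. No hg19 annotation was used here, so regions were not assigned to exons or introns. Starts of the 14 other genes were written by hand for hg19, checked by a peak at the start and by gene length, and the lengths differed from RefSeq GRCh38.p14 by at most 7.70 kb (CPSF2). Regions other than promoters were named where limma called them or where the genotypes did not overlap; the other shared regions are given for completeness. The members, the lists and the tests were chosen with earlier results of these data known; edges, deciles of pileup and surroundings were added after seeing the data. Software versions were scipy 1.17.1, numpy 2.4.6, pandas 2.3.3, matplotlib 3.10.9 and Python 3.11.15.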

Additional observations from a re-analysis of the deposited data

How the results depend on the processing

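Of the 10 shared regions, limma called 4 as reported. It called 0 under background scaling (1 of the 10 at an unadjusted p under 0.05), 1 under quantile normalization, 1 with the sum of summits, 1 without the trend and 2 in lists of equal length. Among regions above the median pileup, which leave out the GON4L site at 82.8 kb, it called 1. With 1 library left out it called 1 to 4. The GON4L site at 95.8 kb was called in each of these fits except background scaling. The cause of these changes was not tested. Over the genome, 23026 shared regions were called as reported, 8742 under background scaling and 11948 among regions above the median pileup, which tests fewer regions. Labels number the replicates in both genotypes, but same-numbered libraries did not deviate together (correlations of 0.0556, 0.0622 and -0.0903, and CRAMP1-KO replicate 2 was closest to WT replicate 3). With the replicate block limma called 3 of the 10, the YY1AP1 promoter missing the threshold with its log2 change at -0.26 as before (adjusted p = 0.0577). No alternative gave a call by width at the 5 genes or a region present in 3 of 3 libraries of one genotype and 0 of 3 of the other. Log2 changes kept their sign wherever they were called. Covered bases per window had an exact permutation p of 0.1 or more in every alternative, and 3 against 3 libraries allow none lower. Depth in reads is unknown, which limits the reading of weak regions.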

Other observations

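A narrow site 3.7 kb upstream of CASP8AP2, at chr6:90535878-90536047, was the strongest region at the 5 genes that was not shared by all libraries. It had a peak in CRAMP1-KO replicates 1 and 3, with pileups of 63 and 98 and widths of 164 and 168 bp, and in WT replicate 1, with a pileup of 48 and a width of 136 bp. The narrowest peaks of the same lists were 163, 168 and 135 bp wide. Its local background, at 14.7 and 21.2 in CRAMP1-KO and 19.3 in WT, stood beside 14.7 and 21.3 in CRAMP1-KO and 19.1 in WT at the promoter peak of the same libraries.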
